A study of Macaca fascicularis with 6 samples.

Results

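The genes described here are 10 members of the transforming growth factor-β (TGF-β) system: the ligands *TGFB1*, *TGFB2* and *TGFB3*, the receptors *TGFBR1*, *TGFBR2* and *TGFBR3*, the latency protein *LTBP1*, the intracellular proteins *SMAD3* and *SMAD7*, and the induced matrix gene *TGFBI*. They were taken by symbol, and all 10 were listed both among the 13950 genes of a first matrix of single cells and among the 14020 genes of a second. The study made cartilage organoids (cyiPS-Cart) from induced pluripotent stem cells of the cynomolgus monkey (cyiPSC) and placed them in defects of the knee articular cartilage of other monkeys. Single-cell RNA was read by TAS-Seq, a bead-based method for whole transcriptomes. The first matrix held 2500 cyiPSCs and 3527 cells of pre-transplant cyiPS-Cart. The second held 320 cells each of pre-transplant cyiPS-Cart, post-transplant organoids (cyiPS-Cart) recovered 4 months after transplantation, articular cartilage that was intact (cyAC), and fibrous tissue from defects left empty (cyFT).

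All cyiPSC and cyiPS-Cart cells came from 1 iPSC line with EGFP, which had been maintained on mouse embryonic fibroblast feeders. The cyAC and cyFT cells were from wild-type monkeys, 3 to 4 years old. The same age was given for the post-transplant sample, and the same time of 4 months for cyAC and cyFT. The genotype label of the post-transplant sample was also wild type, but a GFP transcript was read in 100% of its cells at 5504 CPM (counts per 1000000 reads), against 0 CPM in cyAC and cyFT. cyiPS-Cart was cultured up to transplantation in medium with 10 ng/mL TGF-β1 as well as BMP2 and GDF5, and its digestion before sequencing was done with the same factors. The solution stated for post-transplant cyiPS-Cart and cyAC held none of them, and for cyFT none was stated. This exposure of the pre-transplant cells cannot be told apart from the condition. The study stated 3 monkeys per group and time point, with transplanted sites of a monkey combined for sequencing. How many animals each library pools was not named.

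Each condition was 1 sample, so no test between conditions was possible. cyiPSC and pre-transplant cells shared a library, as did cyAC and cyFT cells, and post-transplant cells had their own. Of the 320 pre-transplant cells of the second matrix, 300 were also in the first, so the pre-transplant sets are not replicates, and the 3 pairs of libraries had 2, 4 and 0 cell index numbers in common. A cyiPSC had a median of 143075 reads, and the medians of the other samples lay between 27499.5 and 80335.5. The values are read counts, not molecules, summed over the cells of a condition and given as CPM. All intervals are 95% intervals that cover counting error only. Those of CPM, folds and ligand shares take each read as independent. Reads can be copies of the same molecule and cluster by cell, so these intervals are too narrow even for the counting of molecules. The counts are not per length, so levels are compared between conditions and not between genes. All 5 chondrocyte markers checked (*COL2A1*, *ACAN*, *SOX9*, *COL9A1*, *MATN3*) were read in every cartilage sample, and 7 immune markers summed to 616 CPM in cyFT against 4.23 to 28.3 CPM in the other 3 samples of the second matrix.

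TGF-β ligands are secreted in a latent form, folded together with their own propeptide and held in the matrix by latent TGF-β binding proteins such as LTBP1, until integrins, proteases or thrombospondin release them. The free ligand binds TGFBR2, which recruits and activates TGFBR1, while TGFBR3 (betaglycan) is a co-receptor that presents ligand, TGF-β2 above all. Activated TGFBR1 phosphorylates SMAD2 and SMAD3, SMAD7 is an induced inhibitor that feeds back on the receptor, and the secreted matrix protein TGFBI is a classical induced gene. In cartilage the pathway is known for driving chondrogenesis and for maintaining *PRG4*, which encodes the lubricating proteoglycan of the joint surface.

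The balance of the ligand genes differed before and after transplantation. *TGFB1* was at 414 CPM in pre-transplant cyiPS-Cart (405 to 423), 97.3 in post-transplant cyiPS-Cart (93.8 to 101), 336 in cyAC (326 to 347) and 241 in cyFT (232 to 250). The post-transplant sample was therefore the lowest of the cartilage samples, 4.26-fold below pre-transplant cyiPS-Cart and 3.46-fold below cyAC. *TGFB3* was at 22.2, 89.4, 42.9 and 98.0 CPM in the same order. Here post-transplant cyiPS-Cart and cyFT stood high and pre-transplant cyiPS-Cart low, and the post-transplant level was 4.03-fold the pre-transplant level (3.66 to 4.46). *TGFB2* was at 122, 67.8, 67.0 and 32.8 CPM, highest before transplantation and lowest in cyFT, and the intervals of post-transplant cyiPS-Cart (64.9 to 70.8) and cyAC (62.4 to 71.8) overlapped.

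As a share of all reads of the 3 ligand genes, *TGFB1* made up 74.2% in pre-transplant cyiPS-Cart (73.4 to 74.98) and 38.2% in post-transplant cyiPS-Cart (37.1 to 39.3). It made up 75.4% in cyAC and 64.8% in cyFT. The *TGFB3* share went from 3.97% to 35.1% over transplantation and was 9.61% in cyAC and 26.4% in cyFT. *TGFB2* made up 21.8%, 26.6%, 15.0% and 8.83% in the order of pre-transplant, post-transplant, cyAC and cyFT cells. The *TGFB1* shares of pre-transplant cyiPS-Cart and cyAC thus lay close to each other, while their *TGFB2* and *TGFB3* shares had intervals that did not overlap. The ligands summed to 558 CPM before and 255 CPM after transplantation.

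**Figure D1:**
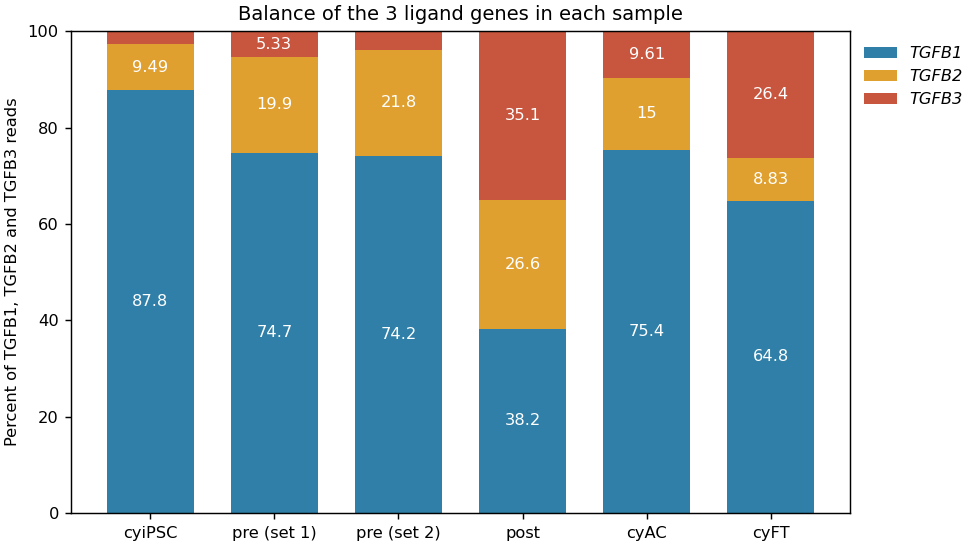
Percent of the reads of *TGFB1*, *TGFB2* and *TGFB3* taken by each gene in each sample; "pre (set 1)" is the larger pre-transplant set of the first matrix and "pre (set 2)" the 320 cells of the second. *TGFB1* held 74.2% before and 38.2% after transplantation, and *TGFB3* held 35.1% after it.

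Per cell, *TGFB1* and *TGFB3* differed in the same directions. After every cell was thinned to 12191 reads, *TGFB1* was read in 86.2% of pre-transplant cells (81.9 to 89.8) and in 32.5% of post-transplant cells (27.4 to 37.9). *TGFB3* was read in 12.5% (9.11 to 16.7) and 35% (29.8 to 40.5). Before thinning, at unequal depths, the shares were 94.7% and 49.4% for *TGFB1* and 23.4% and 51.6% for *TGFB3*. Thinned cells with reads of *TGFB1* alone among the ligands made up 41.7% of pre-transplant cyiPS-Cart, 13.4% of post-transplant cyiPS-Cart, 42.5% of cyAC and 36.1% of cyFT. Cells with *TGFB3* alone made up 0.940%, 17.8%, 4.22% and 13.9%, and cells with no ligand read 7.21%, 33.1%, 21.1% and 26.4%. A large part of the post-transplant cells thus showed either *TGFB3* without the other ligands or no ligand at this depth.

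Of the receptors, *TGFBR1*, the type I kinase, was at 34.0 CPM in pre-transplant cyiPS-Cart, 16.8 in post-transplant cyiPS-Cart, 82.8 in cyAC and 68.7 in cyFT. The post-transplant level was 2.02-fold below the pre-transplant level and 4.92-fold below cyAC. *TGFBR2*, the type II kinase that binds ligand first, was at 53.5, 85.5, 121 and 104 CPM, with post-transplant cyiPS-Cart between pre-transplant cyiPS-Cart and both cyAC and cyFT. *TGFBR3*, the co-receptor, was at 38.7, 138, 185 and 145 CPM. It was 3.57-fold higher after transplantation (3.31 to 3.85), and its level then came within 1.34-fold of cyAC.

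The kinase receptors are needed together, and reads of both in the same cell were few at equal depth. Thinned cells with reads of both *TGFBR1* and *TGFBR2* made up 4.39% of pre-transplant cyiPS-Cart (2.42 to 7.25), 3.44% of post-transplant cyiPS-Cart (1.73 to 6.07), 12.7% of cyAC (9.16 to 16.9) and 12.2% of cyFT (8.61 to 16.5). The intervals of the cyiPS-Cart samples did not overlap with those of cyAC and cyFT. Cells with *TGFBR2* reads but none of *TGFBR1* made up 25.7%, 32.2%, 28.2% and 30.6%, with overlapping intervals in all 4 samples. A cell without a read of a receptor gene at this depth can still express it.

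*LTBP1*, which tethers the latent complex to the matrix, was at 351 CPM in pre-transplant cyiPS-Cart, 453 in post-transplant cyiPS-Cart, 381 in cyAC and 331 in cyFT. Its highest and lowest levels differed by 1.37-fold, the smallest span of the 10 genes over these samples. Its reads were spread widely, with 89.1%, 88.1%, 84.4% and 70.0% of cells positive. The 16 cells of cyFT with reads of at least 3 immune markers were at 13.9 CPM of *LTBP1*, against 355 CPM in the other cyFT cells.

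*SMAD3*, which carries the signal to the nucleus, was at 42.8 CPM before and 115 CPM after transplantation, 2.68-fold higher (2.49 to 2.88), with 90.1 CPM in cyAC and 80.1 in cyFT. *SMAD7*, the inhibitor, was at 50.8, 106, 167 and 205 CPM in the same order. Both genes were thus lowest in pre-transplant cyiPS-Cart. The difference of *SMAD7* over transplantation (2.09-fold) was smaller in other measures, since the share of cells with reads at equal depth was 30.1% before and 32.8% after, with overlapping intervals, and the 5 cells with the most *SMAD7* reads held 20.8% of them in the post-transplant sample. For *SMAD3* the share of cells with reads at equal depth was 24.1% before and 44.1% after.

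*TGFBI* was at 610 CPM in pre-transplant cyiPS-Cart, 808 in post-transplant cyiPS-Cart, 326 in cyAC and 1043 in cyFT. It was highest in the fibrous tissue and lowest in the intact cartilage, where 1 cell held 15.6% of its reads. Reads were found in 40.6%, 35.9%, 28.1% and 69.1% of cells. The authors' background correction set low counts of this gene to 0 (its lowest count above 0 was 7, 16, 6 and 6), so that these shares are not shares of cells with any transcript. The genes most like *TGFBI* over the cells of a sample, by the mean Spearman correlation over the 4 samples among 2904 genes, were *COL3A1* (0.26), *COL5A2* (0.22), *FMOD* (0.21), *COL5A1* (0.21) and *TNC* (0.21), all of them genes of extracellular matrix. These 5 were taken as the highest values, and the median over the genes compared was -0.002 with a 99th percentile of 0.11. The likeness was seen in the monkeys' own tissues, at 0.45 in cyAC and 0.55 in cyFT for *COL3A1*, and was weak in pre- and post-transplant cyiPS-Cart (0.13 and -0.08). The correlations are over 320 cells a sample, which share a library and differ in depth.

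**Figure D2:**
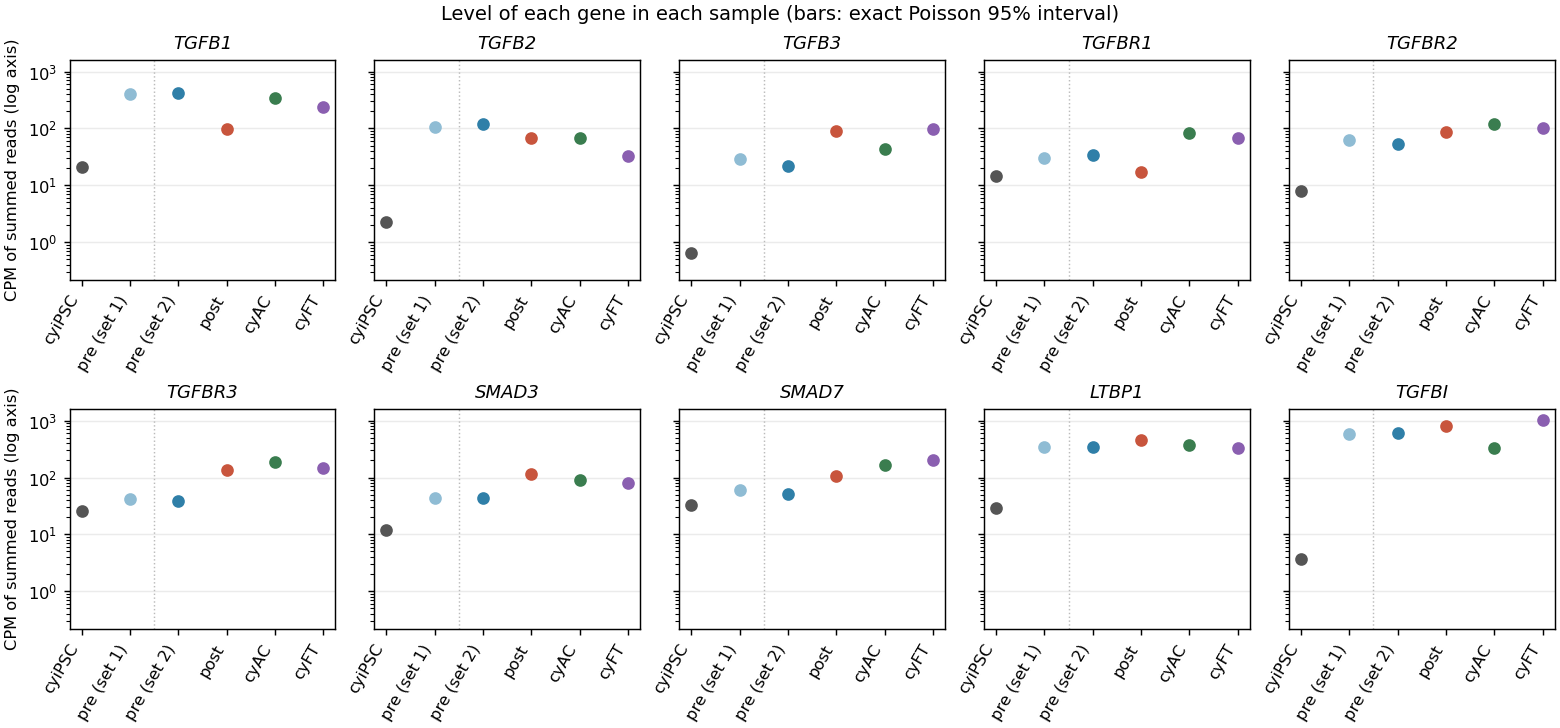
CPM of summed reads (log axis) of each gene in cyiPSC, the pre-transplant sets of the first and second matrix, post-transplant cyiPS-Cart, cyAC and cyFT, with exact Poisson 95% intervals, most of them smaller than the points. The dotted line parts the first matrix from the second. *TGFB1* and *TGFBR1* were lowest of the tissues after transplantation, at 97.3 and 16.8 CPM.

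Differentiation of cyiPSC into cyiPS-Cart came with higher levels of most of these genes. A gene was counted as past the fold when the log2 ratio of CPM + 1 was at least 1 in size, among genes with at least 5 CPM and 10 cells with reads in either sample. By this count 7 of the 10 members were higher in pre-transplant cyiPS-Cart and 0 were lower, where 16.3% of all 9587 genes compared were higher and 37.8% lower. The median log2 ratio was 3.18 over the members and -0.62 over all genes. *TGFB1* was at 20.7 CPM in cyiPSC and 405 CPM in pre-transplant cells, *TGFBR2* at 7.90 and 63.8, *SMAD3* at 12.1 and 43.8, and *LTBP1* at 29.2 and 339. *TGFB2* was at 2.24 and 108 CPM, *TGFB3* at 0.643 and 28.9, and *TGFBI* at 3.64 and 590. The other 3 members were within the fold, with *TGFBR1* at 14.6 and 29.9 CPM, *TGFBR3* at 26.0 and 41.6, and *SMAD7* at 32.8 and 59.5. With TMM scaling, which raised every gene by 0.67 on the log2 scale, these 3 also passed the fold.

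The lowest cyiPSC levels were set beside those at which markers of one sample were read in the other sample of the shared library. In cyiPSC, *TGFB2* stood at 2.08% of its pre-transplant level, *TGFB3* at 2.22% and *TGFBI* at 0.616%. Of the chondrocyte markers in cyiPSC, *COL2A1* stood at 0.0622%, *ACAN* at 0.155%, *MATN3* at 0.368%, *COL9A1* at 0.391% and *SOX9* at 2.63% of the pre-transplant level. Low counts of *COL2A1*, *ACAN*, *MATN3* and *COL9A1* had been set to 0, with lowest counts above 0 in cyiPSC of 170, 16, 7 and 17, as had those of *TGFBI* (7), whereas *TGFB2*, *TGFB3* and *SOX9* kept counts of 1. In the other direction, the pluripotency genes *NANOG*, *LIN28A*, *SALL4* and *TDGF1* stood in pre-transplant cells between 2.37% and 2.54% of their cyiPSC level, and *DPPA4* at 18.2%. Whether the cyiPSC reads of *TGFB2*, *TGFB3* and *TGFBI* came from those cells or from the other sample of the library was not tested. A total of 44 of the 2500 cyiPSCs held *COL1A1* reads, and these cells held 13.3% of the *TGFB2* and of the *TGFBR2* reads, 11.8% of the *TGFBI* reads and 9.44% of the *TGFB1* reads of cyiPSC.

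From pre- to post-transplant cyiPS-Cart, 4 members passed the fold upward (*TGFB3*, *TGFBR3*, *SMAD3*, *SMAD7*) and 1 downward (*TGFB1*), where 9.58% of 8765 genes were higher and 18.2% lower. The median log2 ratio was 0.54 over the members and -0.22 over all genes. The log2 ratios were 1.96, 1.81, 1.40, 1.05 and -2.08 in that order. *SMAD7* was only just past the fold, and against the larger pre-transplant set it was within it, at 0.83. By shares of thinned cells, *SMAD3* (0.70) and *SMAD7* (0.20) were both within the fold. *TGFBR1* was just short of the fold, at -0.97, and *TGFB2* (-0.84), *TGFBR2* (0.67), *LTBP1* (0.37) and *TGFBI* (0.41) were within the fold. *COL1A1* reads were found in 24.1% of pre-transplant and 16.9% of post-transplant cells, shares that are not on one scale since the lowest count above 0 left by the correction was 277 and 497, and among cells without them the log2 ratios of *TGFB1* and *TGFB3* were -2.04 and 2.16. The 5 fibroblast markers (*COL1A1*, *COL1A2*, *COL3A1*, *DCN*, *LUM*) were all read in both samples and summed to 23513 CPM before and 78539 CPM after transplantation, each of them higher after it, and their part in these ratios was not tested. TMM scaling raised every gene by 0.22 on the log2 scale, with which no member changed its side of the fold.

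Against cyAC, post-transplant cyiPS-Cart was lower in *TGFBR1* (log2 ratio -2.23) and *TGFB1* (-1.78) and higher in *TGFBI* (1.31) and *TGFB3* (1.04). These 2 of 10 in each direction compare with 11.0% of 8832 genes higher and 16.0% lower, and the medians were -0.20 over the members and -0.07 over all genes. *TGFB3* was only just past the fold and came within it with a pseudocount of 10 (0.91), a stricter filter on cells (0.98) and without marked doublets (0.99). By shares of thinned cells, *TGFBI* (0.35) and *TGFB1* (-0.90) were within it. The 5 fibroblast markers summed to 15852 CPM in cyAC against 78539 CPM in post-transplant cyiPS-Cart. *COL1A1* (1196 and 10168 CPM), *COL1A2* (1962 and 25852), *COL3A1* (5177 and 34539) and *LUM* (1002 and 1698) were higher in the latter. *DCN* was not, at 6515 and 6282 CPM. The part of these markers in the ratios was not tested. The other 6 members were within the fold, from -0.65 for *SMAD7* to 0.34 for *SMAD3*, and *TGFB2* was at 0.02. Among cells of both samples with *COL2A1* reads and no *COL1A1* reads, the same 4 genes were past the fold, at -2.34, -2.00, 1.23 and 1.17.

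Between cyFT and cyAC, *TGFBI* (log2 ratio 1.67) and *TGFB3* (1.17) were higher and *TGFB2* (-1.01) was lower, 2 and 1 of 10, where 12.7% of 9043 genes were higher and 4.43% lower, with medians of -0.21 over the members and 0.19 over all genes. *TGFB2* came within the fold with a pseudocount of 10 (-0.85), and *TGFB3* with TMM scaling (0.99) and by shares of thinned cells (0.81). The comparisons share the cyAC, pre-transplant and post-transplant samples with each other, so their counts are not independent. The receptors, *SMAD3*, *SMAD7* and *LTBP1* were all between -0.35 and 0.30 on the log2 scale, and *TGFB1* was at -0.48. Without the 16 immune-marker cells of cyFT and the 1 of cyAC, *TGFBI* was at 1.57 and *TGFB3* at 1.27. The immune-marker cells of cyFT held 15.9% of its *TGFBI* reads, at 2330 CPM.

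**Figure D3:**
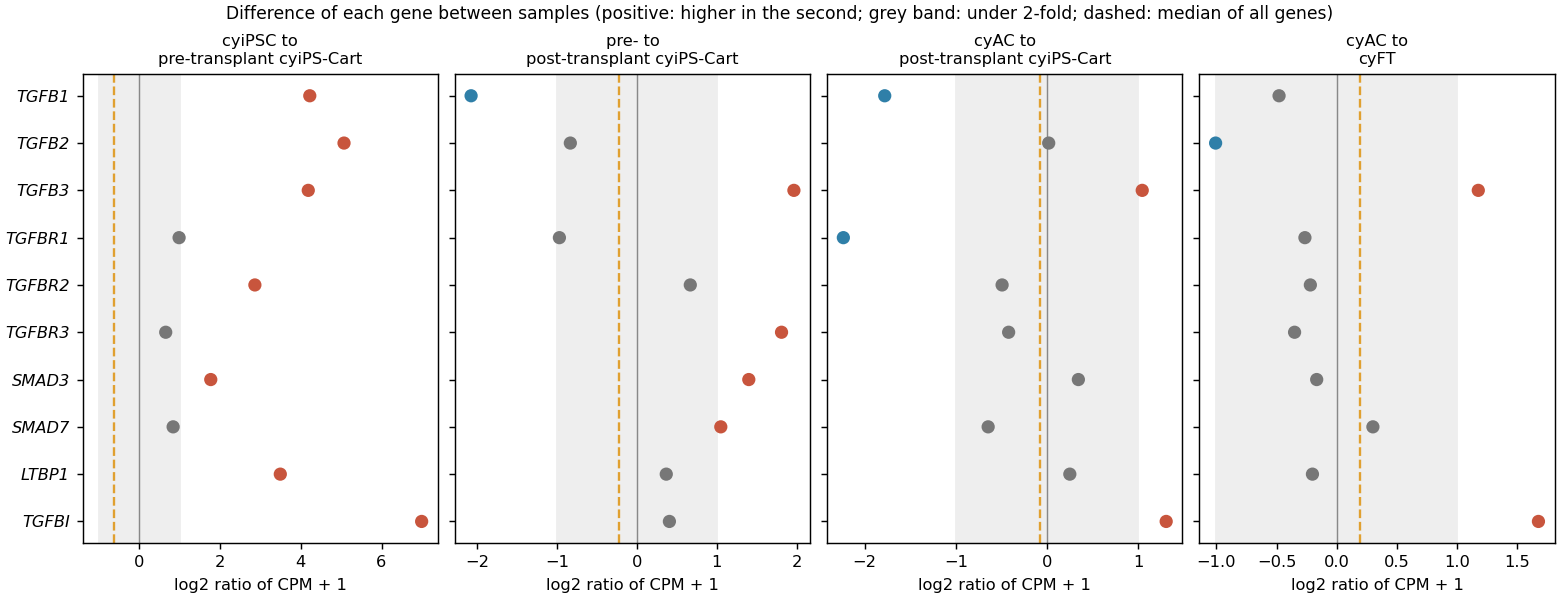
Log2 ratio of CPM + 1 for each gene in 4 comparisons, positive where the second sample named was higher; the grey band spans less than 2-fold, the dashed line is the median of all genes compared, and the x axes differ. *TGFB1* stood at -2.08 from pre- to post-transplant cyiPS-Cart and *TGFB3* at 1.96.

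The cells of cyFT were not alike in these genes. By collagen reads, 53.1% of cyFT cells held *COL1A1* and no *COL2A1* (170 cells), and 26.2% held *COL2A1* and no *COL1A1* (84 cells), against 5.00% and 86.2% of cyAC. The correction had set low counts of both collagens to 0, with lowest counts above 0 of 81 (*COL1A1*) and 211 (*COL2A1*) in cyFT and of 76 and 219 in cyAC, so a cell without reads of a collagen here is one below such a count. In the *COL1A1*-only cells of cyFT, *TGFBI* was at 1675 CPM against 115 in the *COL2A1*-only cells, *TGFBR3* at 222 against 23.9, *TGFB3* at 191 against 22.3 and *TGFB2* at 47.4 against 14.3. *SMAD7* was lower in them, at 113 CPM against 357, as was *TGFB1*, at 139 against 291, which came within the fold by the mean of per-cell CPM (-0.98) and by shares of thinned cells (-0.97). Reads of *TGFB2* were found in 9 of the 84 *COL2A1*-only cells and reads of *TGFB3* in 13, so these levels rest on few cells. *TGFBR1*, *TGFBR2*, *SMAD3* and *LTBP1* were within the fold. The count was 4 of 10 higher and 2 lower, where 21.4% of 7947 genes were higher and 10.1% lower (median log2 ratio -0.03 over the members and 0.29 over all genes), and the median reads per cell were 21830 and 47803.

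Within the *COL2A1*-only cells the comparison of cyFT with cyAC changed direction for the genes that had been higher in cyFT. *TGFBI* was at 115 CPM in these cells of cyFT and 301 CPM in those of cyAC, a log2 ratio of -1.38. *TGFB3* was at 22.3 and 36.9 CPM (-0.70), *TGFBR3* at 23.9 and 134 (-2.44) and *TGFB2* at 14.3 and 72.8 (-2.27). The cyFT levels of *TGFB2* and *TGFB3* here come from 9 and 13 cells with reads. The higher *TGFBI* and *TGFB3* of whole cyFT was thus not seen in its *COL2A1*-only cells. *SMAD7* was at 357 CPM in those of cyFT and 180 in those of cyAC (0.98), while *TGFBR1* (0.01) and *LTBP1* (-0.01) hardly differed. Among *COL1A1*-only cells, of which cyAC had 16, *TGFBI* was at 1675 CPM in cyFT and 1066 in cyAC.

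**Figure D4:**
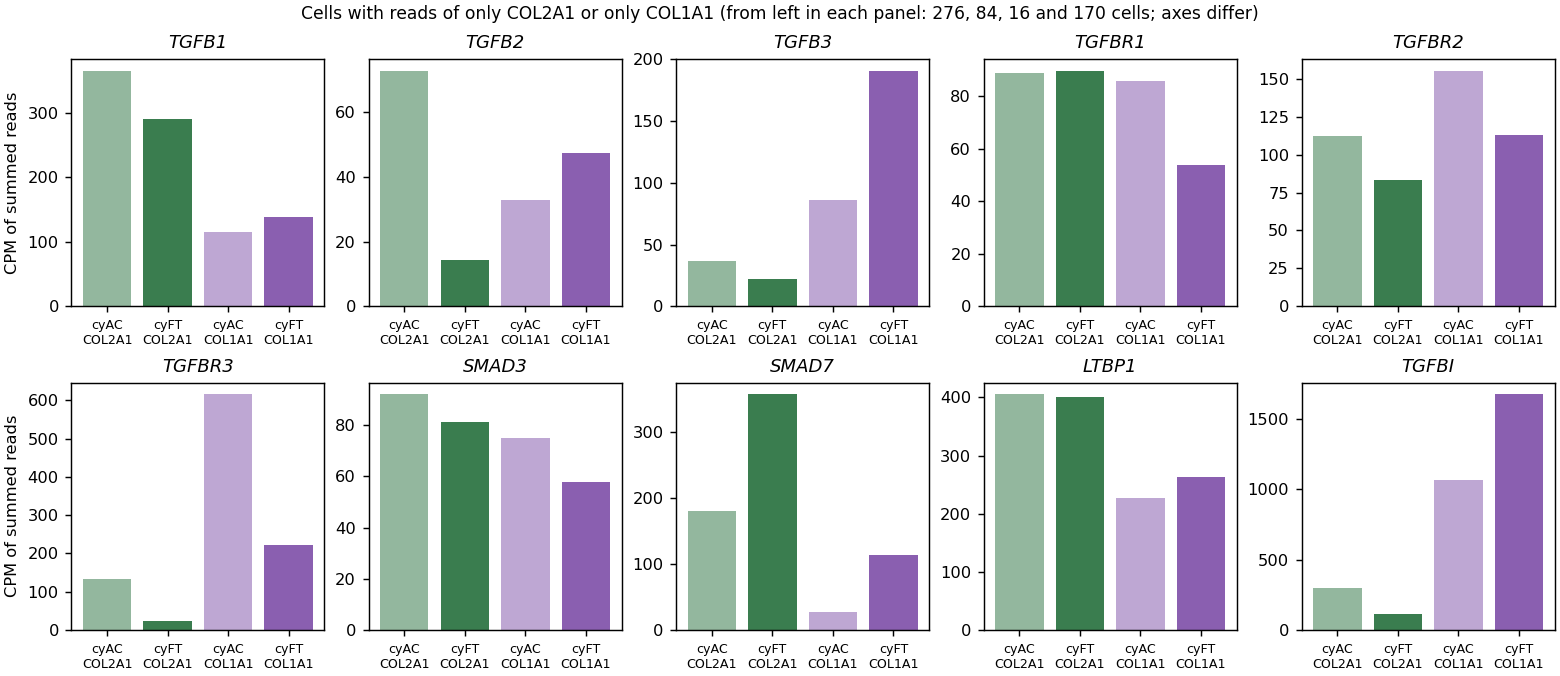
CPM of summed reads of each gene in *COL2A1*-only and *COL1A1*-only cells of cyAC and cyFT (bars from 0, y axes differ; no interval is drawn, since cells of 1 sample are not replicates). *TGFBI*, *TGFB3* and *TGFBR3* were low in the *COL2A1*-only cells of cyFT, at 115, 22.3 and 23.9 CPM.

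The relation to *PRG4* was then read within each sample. Cells with *PRG4* reads numbered 53 of 320 in pre-transplant cyiPS-Cart, 227 in post-transplant cyiPS-Cart, 311 in cyAC and 279 in cyFT. The authors' correction had set low *PRG4* counts to 0 in the pre-transplant sample, where the lowest count above 0 was 22, and it was 1 in the other samples, so that these shares are not on one scale. In the pre-transplant sample *LTBP1* was at 643 CPM in *PRG4*-positive and 283 CPM in *PRG4*-zero cells, 2.27-fold higher (2.17 to 2.38), and *SMAD3* was at 23.0 and 47.4 CPM. These were the only members past the fold, 1 of 10 in each direction, where 2.15% of 8504 genes were higher and 6.03% lower. *TGFB1* was at 429 and 411 CPM. In the larger set of pre-transplant cells, with 610 *PRG4*-positive cells, *LTBP1* was at 518 and 299 CPM, a log2 ratio of 0.79 and so within the fold, and *SMAD3* at 42.6 and 44.04 CPM, so that the difference of *SMAD3* was not seen there.

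In post-transplant cyiPS-Cart 0 of 10 members passed the fold in either direction, where 7.13% of 8262 genes were higher in *PRG4*-positive cells and 4.54% lower. *TGFB2* came nearest, at 55.7 CPM in *PRG4*-positive and 108 CPM in *PRG4*-zero cells (-0.95), and *SMAD7* was at 117 and 71.1 CPM (0.71). *LTBP1* was at 439 and 498 CPM, so the higher level seen before transplantation was absent. In cyFT only *TGFBR1* passed, at 72.1 and 16.5 CPM (2.06), 1 of 10 higher and 0 lower, where 22.9% of 8831 genes were higher and 11.3% lower. The *PRG4*-zero group of cyFT held 41 cells with a median of 15648 reads, against 30224 in the positive cells, and 5 cells held 80.2% of the *PRG4* reads of cyFT. When cyFT cells were parted at the median *PRG4* level instead, *TGFBR1* stood at -0.17. cyAC had 9 *PRG4*-zero cells and was not split in this way, and when its cells were parted at the median *PRG4* level 0 members passed the fold. The share of all genes past the fold was not computed for that split, so this count is not a result about the members.

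Over single cells, the Spearman correlation of *LTBP1* with *PRG4* was 0.39 over the 320 pre-transplant cells and 0.26 over the larger set of 3527, which share most of their cells, and was 0.02 after transplantation, -0.14 in cyAC and 0.03 in cyFT. *TGFBI* was at -0.24 in cyFT, where it also went with depth (-0.25). All other correlations of members with *PRG4* were between -0.19 and 0.17, and in counts this sparse they are no finding.

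**Figure D5:**
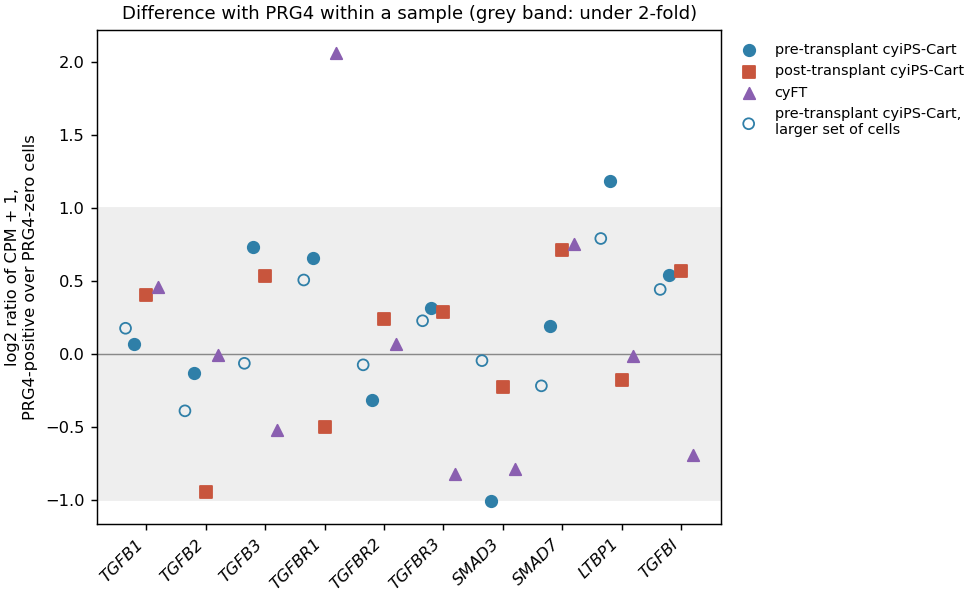
Log2 ratio of CPM + 1 between *PRG4*-positive and *PRG4*-zero cells of the same sample for each gene (grey band: less than 2-fold; open circles: the larger pre-transplant set of the first matrix). *LTBP1* in pre-transplant cyiPS-Cart (1.18) and *TGFBR1* in cyFT (2.06) lay above the band and *SMAD3* in pre-transplant cyiPS-Cart (-1.01) just below it.

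The study parted pre- and post-transplant cells, pooled, at a *PRG4* value of 2.4, read here as the natural log of CPM + 1. This put 271 cells in the high group, of which 80.4% were post-transplant, and 369 in the low group, of which 72.4% were pre-transplant. Over the pooled cells, *TGFB1* was at 152 CPM in the high and 307 CPM in the low group (log2 ratio -1.01), *TGFB3* at 83.9 and 38.8 (1.09) and *TGFBR3* at 134 and 59.0 (1.17). Within each sample these differences were smaller. *TGFB1* stood at 0.06 before and 0.20 after transplantation, *TGFB3* at 0.73 and 0.23, and *TGFBR3* at 0.32 and 0.51. *TGFB3* and *TGFBR3* kept the sign of the pooled cells within both samples. The lower *TGFB1* of the pooled high group was not seen within either sample.

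The rest of the pathway was followed over 54 genes in 7 groups, of which 47, the 10 members included, were listed in the second matrix. From cyiPSC to pre-transplant cyiPS-Cart 27 of 42 compared were higher and 2 lower, against 16.3% and 37.8% of all genes, with a median log2 ratio of 2.25 against -0.62. Outside the 10 members, the largest differences upward were of target genes. *POSTN*, a matrix protein, was at 7.05 and 2230 CPM, *CDKN1A*, a cell cycle inhibitor, at 5.91 and 683, and *SNAI2*, a transcription factor, at 6.31 and 413. All 6 genes of latency and storage compared were higher. *TAGLN*, an actin-binding protein, was lower, at 1648 and 384 CPM. After transplantation 7 of 42 were higher and 13 lower, against 9.58% and 18.2% of all genes, with a median of -0.54 against -0.22. Of 9 target genes 5 were lower and 1 higher, with *TAGLN* at 367 and 38.7 CPM, *POSTN* at 2248 and 355, and smooth muscle actin *ACTA2* at 89.1 and 13.4, against *SNAI1*, a transcription factor, at 12.4 and 82.6. *LTBP2* was higher after transplantation, at 5.92 and 24.2 CPM, as was the pseudoreceptor *BAMBI*, at 140 and 294.

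Against cyAC, 7 of 42 were higher and 12 lower in post-transplant cyiPS-Cart, where 11.0% and 16.0% of all genes were, with a median of -0.50 against -0.07. Of the 10 inhibitors compared 5 were lower and 1 higher, with the corepressor *TGIF1* at 138 CPM against 493 and the ubiquitin ligase *SMURF1* at 4.69 against 23.0, while *BAMBI* was at 294 against 43.8. *CCN2*, a matricellular target gene, was at 126 CPM against 1085 in cyAC, and *POSTN* at 355 against 3.72. In cyFT against cyAC 12 of 44 were higher and 3 lower, where 12.7% and 4.43% of all genes were, with a median of 0.13 against 0.19. The lower count was near the share of all genes, and 0 of 10 inhibitors passed the fold in either direction. *POSTN* was at 38.0 CPM against 3.72, *ACTA2* at 52.6 against 9.13 and *TAGLN* at 504 against 97.9, while *LTBP2* was at 7.13 against 38.8 and thrombospondin *THBS1*, an activator of latent TGF-β, at 800 against 2106.

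Between the cell classes of cyFT, 13 of 41 pathway genes were higher in *COL1A1*-only cells and 11 lower, where 21.4% and 10.1% of all genes were. *THBS1* was at 118 CPM in them against 1743 in *COL2A1*-only cells, *CCN2* at 131 against 1429, and the protease *FURIN*, which cleaves the ligand from its propeptide, at 118 against 723. The protease *MMP2* was at 389 against 33.0, *ACTA2* at 108 against 3.12 and *POSTN* at 94.7 against 1.12. Of 10 inhibitors 5 were lower and 0 higher in *COL1A1*-only cells. Between *PRG4*-positive and *PRG4*-zero cells, 3 of 42 pathway genes were higher and 1 lower before transplantation, 4 and 1 after it, and 9 and 5 of 44 in cyFT. Of all genes 2.15% and 6.03%, 7.13% and 4.54%, and 22.9% and 11.3% passed in the same order, so that the counts in cyFT and after transplantation were near the share of all genes. *LTBP2*, of the same family as *LTBP1*, was higher in *PRG4*-positive cells before transplantation, at 14.0 CPM against 4.05, and after it, at 27.6 against 12.6. Before transplantation it passed the filter of 5 CPM only through the *PRG4*-positive group of 53 cells, where it was high. It was read in 12.5% of all pre-transplant cells of the second matrix.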

How the data were processed

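The authors deposited corrected read counts per gene and cell in 2 matrices, made with Bowtie2 (version 2.4.2 in the submitters' processing notes) against Ensembl transcripts, with a background correction that set diffused counts of strongly read genes (log2 maximum over 8) to 0, a mitochondrial filter, and reduction to 320 cells per sample in the second matrix. No step that counts molecules was described, so the counts were taken as reads. Cells were assigned to samples by the prefix of the cell name. The 3 hashtag libraries were not used here.

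Reads were summed per sample and given as CPM with exact Poisson intervals, shares of cells with Clopper-Pearson intervals, and folds as ratios of CPM with exact conditional intervals. Log2 ratios are of CPM + 1. Cells were thinned at random to 12191 reads (second matrix), and 1, 0, 12 and 32 shallower cells of pre-transplant, post-transplant, cyAC and cyFT were left out. The computation of log2 ratios was run on simulated counts, and in each of the 4 comparisons 100% of the altered genes above the filter came out with the right sign. The changes put in were large and the counts varied by Poisson error only. This checks the arithmetic and cannot speak to variation between cells or samples. Since each condition was 1 sample, nothing was tested for significance. Doublets were called by scrublet (scanpy 1.11.5), which marked 0.232% of the 6047 cells of the library of cyiPSC and pre-transplant cells (too few to be relied on), 2.5% of post-transplant cells and 0.625% of cyAC and cyFT cells, and doublets were kept. TMM factors came from edgeR 4.0.16 on the summed counts.

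The 10 members and the gene lists were chosen with earlier results of these data known. Named beside the members are the pathway genes with the largest log2 ratios per direction (at most 3), the genes that group cells, and the 5 genes most correlated with *TGFBI* among those read in at least 25% of the cells of each sample. The alternatives are other pseudocounts (0.1 and 10), filters, scalings and per-cell measures, and leaving out cells.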

Additional observations from a re-analysis of the deposited data

How the results depend on the processing

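Of 158 recounts of members past the fold under alternatives, 128 stayed within 1.5 times the count given above; the others follow, and where no reason is given the cause was not tested. No paired analysis was possible because each condition was 1 sample and the values come from no test, and for the same reason no replicate could be left out. The *COL2A1*-only cells, the cells without *COL1A1* reads, the larger pre-transplant set for *PRG4* and the median split were chosen after seeing the data.

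From pre- to post-transplant cyiPS-Cart, 2 members were lower (*TGFBR1* joined *TGFB1*) with a pseudocount of 0.1, CPM without mitochondrial genes, the mean of per-cell CPM, thinned shares of cells, leaving out the 5 cells richest in each gene, and cells without *COL1A1* reads, and thinned shares left 2 higher (without *SMAD3* and *SMAD7*). *SMAD7* fell within the fold, leaving 3 higher, with a pseudocount of 10, CPM without mitochondrial genes, the mean of per-cell CPM, without the 5 richest cells and against the larger pre-transplant set. From cyAC to post-transplant cyiPS-Cart, 1 member was higher with a pseudocount of 10, the stricter filter on cells and without marked doublets (*TGFB3* lost) and by thinned shares (*TGFBI* lost), and 1 was lower by thinned shares (*TGFB1* lost). From cyAC to cyFT, 0 were lower with a pseudocount of 10 (*TGFB2* lost), and 1 was higher with TMM factors and by thinned shares (*TGFB3* lost). In the *COL2A1*-only cells 0 were higher and 3 lower in cyFT, with *TGFB3* at -0.70 and *TGFBI* at -1.38. For this subset and the other alternatives the share of all genes past the fold was not computed. Whether the members stand out there cannot be read from these counts. Between *COL1A1*-only and *COL2A1*-only cells of cyFT, 1 was lower by the mean of per-cell CPM and by thinned shares (*TGFB1* lost).

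For *PRG4*-positive cells before transplantation, 0 were higher by thinned shares and in the larger set (*LTBP1* lost), 0 were lower there, with a pseudocount of 10 and by the mean of per-cell CPM (*SMAD3* lost), and 3 were lower without the 5 richest cells (*TGFB2* and *TGFBR2* joined). After transplantation 1 was higher without the 5 richest cells (*TGFB1*) and 1 lower by the mean of per-cell CPM (*TGFBR1*). In cyFT 6 were higher without the 5 richest cells, which takes cells from a group of 41, and 0 were higher above the median *PRG4* level, with *TGFBR1* at -0.17.

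The *TGFB1* share of ligand reads moved outside its counting interval as follows. By the mean of per-cell CPM it was 86.6% in cyiPSC, 36.3% in post-transplant cyiPS-Cart, 74.1% in cyAC and 58.9% in cyFT. Without the 5 richest cells it was 89.02% in cyiPSC, 75.15% and 75.73% in the larger and smaller pre-transplant sets, 77.45% in cyAC and 67.7% in cyFT. Without marked doublets it was 88.55% in cyiPSC.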
